A study of Homo sapiens with 6 samples.

Results

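The aryl hydrocarbon receptor (AHR), its partners and target genes and the enzymes that open the kynurenine pathway were followed as 10 genes, of 27455 genes with reads. They were chosen by name, as receptor, partners, targets and tryptophan-kynurenine enzymes, and because CYP1B1 and TDO2 were already known to be lower in ventral midbrain libraries of these data. The values of those 2 genes in this comparison are therefore a description, with no test. Of the 10 genes, 9 had reads and all 9 passed the filter on low counts, while CYP1A1 had no read in any library. CYP1B1 fell from 1836 ± 400.3 CPM (reads scaled to a common library size; SD, n = 3) in control libraries to 391 ± 123 CPM (SD, n = 3) in ventral midbrain libraries, and TDO2 from 56.7 ± 34.4 to 6.10 ± 1.34 CPM.

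The samples were astrocytes derived from H1, an established human embryonic stem cell line, so all of them share 1 genome. The labels' regional character is Control (Forebrain) for 3 libraries and Ventral midbrain for 3, numbered 2, 3 and 4 in each group. The labels' cell type field names the stem cells of origin, and the agents and times used for patterning are not given in the sources used here. Separate cultures are not stated by any label, so a p-value here reflects the spread among these libraries, which may be technical.

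AHR is a ligand-activated transcription factor held in the cytoplasm by a complex built around the HSP90 chaperone. After binding a ligand it enters the nucleus, pairs with ARNT or ARNT2 and binds DNA at xenobiotic response elements, whose core is GCGTG. Its best-known targets are the cytochrome P450 genes CYP1A1 and CYP1B1, together with AHRR and TIPARP, which both restrain the receptor. Kynurenine, made from tryptophan by TDO2, IDO1 or IDO2, is among the ligands of AHR. KYNU cleaves kynurenine and 3-hydroxykynurenine further along that pathway.

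The windows before the RefSeq start sites were searched for the core of the xenobiotic response element. RefSeq promoters (GRCh38.p14) matched 7 of the 10 genes by symbol. CYP1B1, ARNT2 and IDO1 had no entry. The core GCGTG was searched on both strands in the 250 bases before each start, and 32.2% of 35116 such windows hold it. The longer form TNGCGTG, which contains that core, is held by 4.52%. Both sequences below were chosen after the values were seen, since TDO2 fell while AHRR, a feedback target, did not pass the test. TDO2 is followed here as an enzyme that makes kynurenine. Whether AHR acts on either gene was not tested. The sequences are printed 5′ to 3′ on the gene's strand with the core in capitals.
TDO2, chr4:155903446-155903692, plus strand: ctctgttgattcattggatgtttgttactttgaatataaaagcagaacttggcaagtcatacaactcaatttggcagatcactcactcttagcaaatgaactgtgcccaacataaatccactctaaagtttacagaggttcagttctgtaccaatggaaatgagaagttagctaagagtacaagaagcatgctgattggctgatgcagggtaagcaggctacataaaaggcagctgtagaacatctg
AHRR, chr5:321464-321713, plus strand, the first of 2 start sites: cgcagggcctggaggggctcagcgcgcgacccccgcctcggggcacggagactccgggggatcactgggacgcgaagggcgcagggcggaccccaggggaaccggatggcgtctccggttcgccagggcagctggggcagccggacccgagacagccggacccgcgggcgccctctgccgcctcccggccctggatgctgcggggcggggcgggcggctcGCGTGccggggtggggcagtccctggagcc
The TDO2 window held 0 copies of the core in 250 bases (the last 3, annotated as exon, are not printed), and the AHRR window held 1, which is also a match to TNGCGTG. The window of the other AHRR start held 2 copies and no TNGCGTG.

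The sites of CYP1A1 and TIPARP are shown with 12 bases on each side, for comparison with the AHRR site. CACGC is the same core read on the other strand.
CYP1A1, chr15:74725569-74725597, minus strand, 57 to 53 bases before the start: ccagggaaggagGCGTGgccacacgtaca
TIPARP, chr3:156674370-156674398, plus strand, 208 to 204 bases before the first of 3 start sites: cgcgagaaaggaCACGCcccctcgcggga
TIPARP, chr3:156674436-156674464, plus strand, 142 to 138 bases before the same start: cgaacgaacgcgCACGCgcgcgcaggggg
All 3 sites lie in bases that the annotation also counts as exon of a transcript. The windows of AHR, ARNT and KYNU and of the other TIPARP starts held 0 copies. A match is a stretch of letters and does not show binding, and a window without one says nothing of sites elsewhere.

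The libraries held 11617935 to 15391082 estimated reads from 3' end sequencing, which reads the end of each polyadenylated transcript. Of 15984 genes tested over the whole table with edgeR, 344 (2.15%) passed at an adjusted p under 0.05, of which 169 (1.06%) were higher and 175 (1.09%) lower in ventral midbrain libraries. Among the 9 tested members 2 were lower past that threshold, CYP1B1 and TDO2, and since both led to the choice of the group the count supports nothing. For 17.9% of all genes tested the groups did not overlap, for 8.75% with ventral midbrain lower and for 9.17% with it higher. Of the members, CYP1B1, TDO2, AHR and KYNU did not overlap in CPM, all lower in ventral midbrain. In TPM (reads per transcript length) the AHR groups and the KYNU groups overlapped. The median log2 fold change of the 9 members was -0.26, beside 0.01 over all genes tested.

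CYP1B1 (chromosome 2, 38066973 to 38109902, GRCh38) encodes the P450 monooxygenase that oxidizes polycyclic hydrocarbons, oestradiol and retinol. It stood at 1925, 1398 and 2184 CPM in control replicates 2, 3 and 4. In ventral midbrain replicates 2, 3 and 4 it stood at 492, 254 and 425 CPM. Every control library was above every ventral midbrain library, and replicate 3 was the lowest of each group. The log2 fold change was -2.23 ± 0.27 (SE), a 4.70-fold lower mean level. Within same-numbered samples the log2 difference was -1.97, -2.46 and -2.36 for numbers 2, 3 and 4. In bulk samples, fewer cells that express the gene and less RNA per cell cannot be told apart.

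CYP1B1 was among the most heavily read genes of the control libraries. It ranked 64th, 77th and 44th by reads in control replicates 2, 3 and 4 and 251st, 545th and 284th in ventral midbrain replicates 2, 3 and 4. Its share of all reads in a control library was at most 0.203% (95% Wilson interval 0.201 to 0.206), in replicate 4, and in ventral midbrain replicate 3 it was 0.026% (0.0251 to 0.0269). These intervals cover counting error only. Of the reads assigned to CYP1B1, 99.989% fell on a single protein-coding transcript, CYP1B1-205, out of 7 in the files. The antisense gene CYP1B1-AS1 and the neighbouring gene RMDN2 overlap exons of CYP1B1 on the other strand. Mean levels in control and then ventral midbrain libraries were 0.748 and 0.695 CPM for CYP1B1-AS1 and 14.4 and 12.3 CPM for RMDN2, well under those of CYP1B1 (adjusted p by edgeR = 0.985 and 0.799). The sources used here do not state a strand setting for the counting.

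Within the cytochrome P450 family CYP1B1 held most of the reads. Of 30 protein-coding P450 genes with reads, named by symbol, 15 could be tested. Apart from CYP1B1, chosen for its lower level, 0 of them passed edgeR's test, 1 had an unadjusted p under 0.05 and 0 passed with DESeq2 or voom. CYP1B1 made up 90.5%, 85.3% and 88.7% of the family's reads in control replicates 2, 3 and 4. It made up 70.4%, 53.2% and 66.8% in ventral midbrain replicates 2, 3 and 4. This share was lower in each ventral midbrain library than in any control library, and it follows from the CYP1B1 values above. CYP51A1, the sterol demethylase of cholesterol synthesis, was the next most read P450 gene, at 166 ± 25.4 and 136 ± 18.9 CPM (SD, n = 3; adjusted p by edgeR = 0.578). The closest relatives of CYP1B1, CYP1A1 and CYP1A2, had 0 reads in all 6 libraries, which allows up to 0.195 to 0.257 CPM per library (3 reads).

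**Figure D1:**
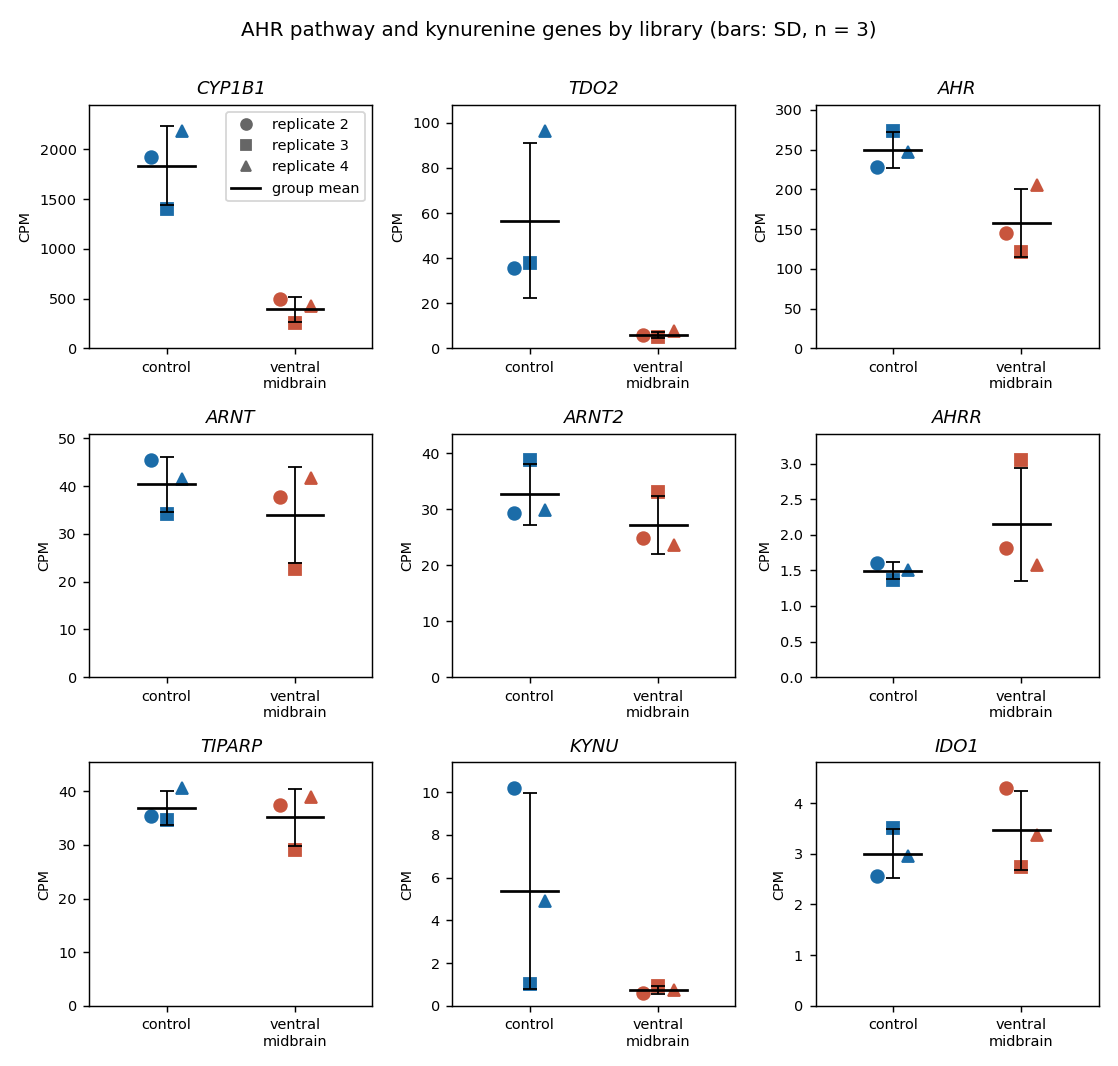
Level of the 9 members with reads (CPM, linear axes from 0) in each of the 3 control and 3 ventral midbrain libraries. Marker shape gives the replicate number, the horizontal line the mean and the bar the SD. CYP1B1, TDO2, AHR and KYNU show no overlap between the groups in CPM, KYNU by a narrow margin, whereas ARNT, ARNT2, AHRR, TIPARP and IDO1 do.

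TDO2 (chromosome 4, 155854738 to 155920406, GRCh38) encodes tryptophan 2,3-dioxygenase, which carries out the first step from tryptophan to kynurenine and is best known from liver. It stood at 35.7, 37.9 and 96.4 CPM in control replicates 2, 3 and 4. It stood at 5.92, 4.86 and 7.52 CPM in ventral midbrain replicates 2, 3 and 4. The groups did not overlap, and control replicate 4 was well above the other control libraries. The log2 fold change was -3.21 ± 0.44 (SE), and without control replicate 4 it was -2.59. By read number TDO2 had 443 to 1274 reads in a control library and 62 to 105 in a ventral midbrain library. The protein-coding transcript TDO2-208 took 95.7% of its reads.

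IDO1, the interferon-inducible dioxygenase of the same step, was low in both groups. It stood at 2.56, 3.51 and 2.95 CPM in control replicates 2, 3 and 4, and at 4.29, 2.74 and 3.37 CPM in ventral midbrain replicates 2, 3 and 4. The groups overlapped (log2 fold change 0.21 ± 0.41; adjusted p by edgeR = 0.92). IDO2, the paralog of IDO1, was too low to be tested, at 0.0488 and 0 CPM on average.

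KYNU, the kynureninase gene, was low and uneven. It stood at 10.2, 1.03 and 4.92 CPM in control replicates 2, 3 and 4, from 139, 12 and 65 reads. It stood at 0.585, 0.941 and 0.716 CPM in ventral midbrain replicates 2, 3 and 4, from 9, 12 and 10 reads. The groups did not overlap in CPM, but control replicate 3 lay close to the ventral midbrain libraries, and it had the same 12 reads as ventral midbrain replicate 3. In TPM the groups overlapped, at 0.0287 to 0.503 in control and 0.0837 to 0.620 in ventral midbrain libraries. The log2 fold change of -2.84 ± 0.75 (SE) did not pass (adjusted p by edgeR = 0.0956). Without control replicate 3 it passed (adjusted p by edgeR = 0.017), and without control replicate 2, the library with the most KYNU reads, it was -1.99 (0.381).

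The KYNU difference was -0.62 with a gene-length offset and -0.03 from the signal the authors deposited. The transcript KYNU-201, which took 92.0% of the reads, ends in an exon of 13786 bases (chromosome 2, 143042047 to 143055832, GRCh38), and other KYNU transcripts end in exons of at most 711 bases. The mean effective length of KYNU in a library, weighted by TPM, ranged from 323 bases in ventral midbrain replicate 2 to 12948 bases in control replicate 3. The part of these lengths in the smaller values was not tested.

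AHR itself (chromosome 7, 16916359 to 17346152, GRCh38) was lower in ventral midbrain libraries without passing the test over all genes. It stood at 228, 273 and 247 CPM in control replicates 2, 3 and 4. It stood at 145, 122 and 205 CPM in ventral midbrain replicates 2, 3 and 4. The groups did not overlap in CPM, although ventral midbrain replicate 4 came close to control replicate 2. The log2 fold change was -0.66 ± 0.20 (SE; adjusted p by edgeR = 0.149). In a fit with the replicate number as a block, called the blocked fit below, the adjusted p was 0.015 (there 8.13% of all genes passed, 4.5% lower and 3.63% higher). DESeq2 gave an adjusted p of 0.0479, and no fit with a library left out passed.

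The partners of AHR did not pass. ARNT, which also dimerizes with the hypoxia factors, averaged 40.4 ± 5.81 CPM in control and 34.0 ± 10.1 CPM in ventral midbrain libraries (SD, n = 3; adjusted p by edgeR = 0.776). Pairs of levels below give control first. ARNT2, the paralog enriched in neural tissue, was at 32.6 ± 5.39 and 27.2 ± 5.16 CPM (adjusted p by edgeR = 0.708). The groups overlapped for both.

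The feedback targets of AHR did not pass the test, and whether they differ from CYP1B1 was not tested. AHRR, the receptor's repressor, stood at 1.61, 1.37 and 1.51 CPM in control and 1.82, 3.06 and 1.58 CPM in ventral midbrain replicates 2, 3 and 4. Only ventral midbrain replicate 3 stood apart, from 39 reads, and the groups overlapped (log2 fold change 0.52 ± 0.55; adjusted p by edgeR = 0.815). TIPARP, an ADP-ribosyltransferase that marks AHR for turnover, stood at 35.4, 34.7 and 40.5 CPM in control and 37.5, 29.01 and 39.0 CPM in ventral midbrain replicates 2, 3 and 4. Its log2 fold change was -0.07 ± 0.18 (adjusted p by edgeR = 0.939), with a sign that changed under 3 alternatives. TIPARP-AS1 and TIPARP overlap on opposite strands, and so do exons of PDCD6 and AHRR on the same strand, so their reads are uncertain.

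**Figure D2:**
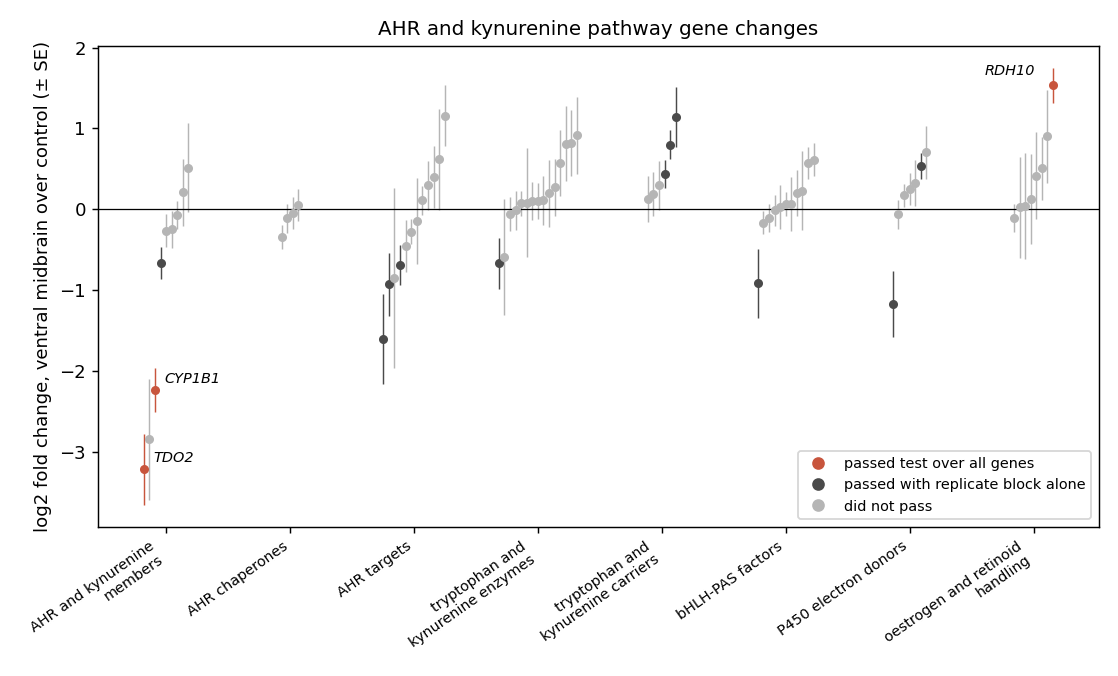
Log2 fold change of ventral midbrain over control (± SE) for the tested genes of 8 groups that are reported here, ordered within a group by value. Red points passed edgeR's test over all genes, dark points passed with the replicate block alone, and grey points passed neither. CYP1B1 and TDO2 lie lowest together with KYNU, and RDH10 is the red point above 0.

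Levels between the members can be compared per transcript length with TPM, which the authors deposited and which was summed here per gene. In control libraries the order was CYP1B1 at 159 ± 16.98 TPM (SD, n = 3), AHR at 44.9 ± 13.9 TPM and TDO2 at 19.8 ± 9.57 TPM. The libraries of these 3 genes did not overlap with each other. ARNT, ARNT2 and TIPARP followed at 4.26, 4.18 and 3.66 TPM and overlapped. IDO1, KYNU and AHRR were lowest, at 0.627, 0.281 and 0.147 TPM. KYNU overlapped with both of the others, its highest library lying at 0.503 TPM and the lowest IDO1 library at 0.496 TPM. In ventral midbrain libraries CYP1B1 at 37.4 ± 12.5 TPM and AHR at 30.6 ± 13.8 TPM overlapped, and TDO2 at 2.63 ± 0.385 TPM stood below TIPARP at 4.07 ± 0.658 TPM. TPM divides by length in libraries whose reads do not depend on it, so an order across genes is approximate.

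The split of AHR reads between its transcripts is a measure apart from the AHR level. Salmon assigned 67.5% of AHR reads to AHR-202, annotated as a target of nonsense-mediated decay, 23.6% to the protein-coding AHR-201 and 8.05% to AHR-204. The AHR-201 share was 25.4%, 25.04% and 29.3% in control replicates 2, 3 and 4. It was 17.5%, 19.6% and 20.4% in ventral midbrain replicates 2, 3 and 4. All control libraries were higher, with means of 26.6% ± 2.39 and 19.2% ± 1.49 (SD, n = 3). The AHR-202 share was larger in ventral midbrain libraries, at 64.4% ± 2.90 in control and 72.1% ± 4.88 there, without overlap. That difference of 7.68 percentage points was 4.89 without ventral midbrain replicate 2. Each gave a two-sided exact permutation p of 0.1, the smallest that 3 against 3 libraries allow, and 0.25 after adjustment over the 5 transcript shares compared, chosen after seeing the data. AHR-204 and the ARNT2 transcripts ARNT2-201 and ARNT2-205 overlapped between groups (exact permutation p = 0.5 to 0.8). AHR-201 and AHR-202 end within 2 bases of each other (17346150 and 17346152), so reads at that end cannot be told apart and the split is Salmon's estimate.

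**Figure D3:**
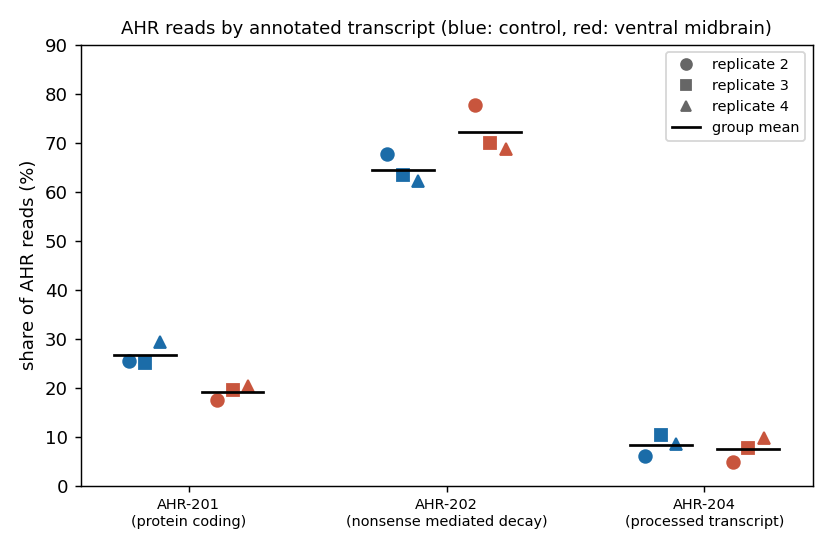
Share of AHR reads (%) that Salmon assigned to each of 3 annotated transcripts, per library, with control in blue and ventral midbrain in red, marker shapes for replicate numbers and lines for group means. The AHR-201 share lies between 25.04% and 29.3% in control libraries and between 17.5% and 20.4% in ventral midbrain libraries.

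The wider pathway was described with 7 lists holding 95 further genes, of which 65 were tested, 25 had too few reads and 5 had none. Of the 65, 2 rose past edgeR's test and 0 fell, and 14 had an unadjusted p under 0.05, a share to be read against 12% of all genes tested. DESeq2 called 4 and voom 2 of them, beside 4.88% and 1.64% of all genes. In the blocked fit 6 were higher and 6 lower, beside the 3.63% and 4.5% of all genes given above. The counts of each list below are to be read against these same shares of all genes. The median log2 fold change of the 65 was 0.10.

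RDH10 was among the genes that rose, and it handles retinoids, a substrate class of CYP1B1. It encodes the retinol dehydrogenase of the first oxidation step, and rose from 24.2 ± 6.78 CPM in control to 69.9 ± 8.66 CPM in ventral midbrain libraries (SD, n = 3), by 1.53 ± 0.22 on the log2 scale (adjusted p by edgeR = 0.00586). This call held in 15 of 15 alternatives. Of the 18 genes of the oestrogen and retinoid list 10 were tested, and 8 had too few reads. CRABP2, a retinoic acid carrier, was at 78.1 and 72.5 CPM (adjusted p by edgeR = 0.895).

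Of 12 tested genes on the list of other AHR targets, 0 passed edgeR's test, 4 had an unadjusted p under 0.05 and 0 passed DESeq2's or voom's test. NQO1, a quinone reductase shared with the NRF2 response, was at 193 ± 41.8 and 120 ± 39.9 CPM (SD, n = 3; adjusted p by edgeR = 0.258, blocked 0.0023). GSTA1, a glutathione transferase with near-identical paralogs and so uncertain, was at 8.39 and 2.75 CPM (adjusted p by edgeR = 0.243, blocked 0.0352). VEGFA, a growth factor of blood vessels, was at 96.8 and 51.0 CPM (adjusted p by edgeR = 0.411, blocked 0.000314). These 3 were lower in the blocked fit and 0 of the list were higher, beside 4.5% and 3.63% of all genes tested. ALDH1A3, a retinaldehyde dehydrogenase, was at 3.78 and 8.41 CPM (adjusted p by edgeR = 0.196), while HES1 and NFE2L2, the most abundant of the list, were at 444 and 480 CPM and at 208 and 172 CPM. ALDH3A1, UGT1A1, SCIN, ABCG2, EREG, LRAT and IL1B were too low to test, and CYP1A2, UGT1A6 and SERPINB2 had no read.

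The chaperones that hold AHR did not pass edgeR's test (0 of 5, 1 by an unadjusted p below 0.05, and 0 with DESeq2 or voom). HSP90AB1 was at 1796 ± 53.8 and 1415 ± 27.0 CPM (SD, n = 3), without overlap between groups (adjusted p by edgeR = 0.376). HSP90AA1 was at 1079 and 1045 CPM. Reads of the HSP90 genes can be split with their pseudogenes.

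Beyond TDO2, IDO1 and KYNU, 23 genes of tryptophan and kynurenine use were listed, and 0 of the 15 tested passed edgeR's test, 0 by an unadjusted p below 0.05, and 0 with DESeq2 or voom. AFMID, the formamidase that follows TDO2, was at 23.8 ± 3.58 and 14.9 ± 7.33 CPM (SD, n = 3; adjusted p by edgeR = 0.448, blocked 0.0499). AADAT, an aminotransferase that makes kynurenic acid, was at 5.34 and 9.38 CPM (adjusted p by edgeR = 0.476). GOT2, another such aminotransferase, was at 71.7 and 75.5 CPM and QPRT, which turns quinolinic acid towards NAD, at 55.2 and 59.6 CPM. KMO, the hydroxylase on the branch to quinolinic acid, was at 0.0784 CPM in ventral midbrain replicate 3 and was not detected in the other libraries at this depth.

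The carriers of tryptophan and kynurenine had positive fold changes in 6 of 6 tested, where 51.7% of all genes tested were positive, with 0 past edgeR's test, 3 by an unadjusted p below 0.05, 1 with DESeq2 and 0 with voom. SLC7A8, a neutral amino acid exchanger, was at 175 ± 36.1 and 304 ± 27.0 CPM (SD, n = 3), without overlap (adjusted p by edgeR = 0.0517, blocked 0.00175). SLC3A2, the heavy chain it pairs with, was at 139 and 189 CPM (adjusted p by edgeR = 0.31, blocked 0.0316). SLC16A10, an aromatic amino acid carrier, was at 7.25 and 15.9 CPM (adjusted p by edgeR = 0.2, blocked 0.0383). The median of the 6 was 0.37 on the log2 scale.

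Factors of the same bHLH-PAS family as AHR and coactivators gave 0 of 11 past edgeR's test, 2 by an unadjusted p below 0.05, and 0 with DESeq2 or voom. EPAS1, a hypoxia factor that also pairs with ARNT, was at 105 ± 11.2 and 160 ± 43.3 CPM (SD, n = 3; adjusted p by edgeR = 0.208), and HIF1A at 223 and 256 CPM. NPAS3 was at 30.5 and 45.4 CPM (adjusted p by edgeR = 0.22). HIF3A was at 40.1 and 21.2 CPM (adjusted p by edgeR = 0.472, blocked 0.0222).

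The electron donors that P450 enzymes need gave 0 of 7 past edgeR's test, 2 by an unadjusted p below 0.05, 1 with DESeq2 and 0 with voom. POR, the reductase of microsomal P450 enzymes, was at 75.0 ± 10.97 and 109 ± 10.7 CPM (SD, n = 3; adjusted p by edgeR = 0.152, blocked 0.0096). CYB5A, cytochrome b5, was at 271 ± 64.5 and 121 ± 57.2 CPM (adjusted p by edgeR = 0.296, blocked 0.014). Their groups did not overlap, in opposite directions. CYB5R3, the reductase of cytochrome b5, was at 252 and 242 CPM.

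The genes whose profile over the 6 libraries lay nearest to CYP1B1 were PCDH18, BGN, AOX1, KLF5 and DDIT4L. Nearness was the root mean square distance between log2 CPM profiles, each centred on its own mean, over 11346 protein-coding genes with an average log2 CPM of at least 2. The distances were 0.22 to 0.25, and the log2 fold changes of the 5 genes were -2.19, -1.92, -2.08, -1.91 and -2.14. BGN is a matrix proteoglycan, AOX1 an aldehyde oxidase, PCDH18 a protocadherin and KLF5 a zinc-finger factor. The genes nearest to TDO2 were DIPK1C, GCOM1, GALNT5, MSX2 and EMX2, at distances of 0.35 to 0.47. DIPK1C stood at 21.8, 34.6 and 60.7 CPM in control and 2.28, 2.82 and 4.23 CPM in ventral midbrain replicates 2, 3 and 4. All 5 genes shared with TDO2 the highest control value in replicate 4. They were picked by likeness to TDO2 over these same libraries, so that trait is no separate result. MSX2 and EMX2 are homeobox genes, and GCOM1 belongs to a read-through locus and is uncertain. This ranking describes likeness over these libraries alone.

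Some cell type markers were lower in ventral midbrain libraries, as CYP1B1 and TDO2 were, and others were not. Of 16 mesenchymal or pericyte markers 15 were tested. Of these, 4 passed as lower (COL1A1, COL3A1, PRRX1 and FOXC1) and 0 as higher, with 7 lower in the blocked fit. Over all genes tested these lower shares were 1.09% and, blocked, 4.5%. By sign 10 of the 15 were lower and 5 higher. Groups did not overlap for 8 lower and 3 higher markers, beside 8.75% and 9.17% of all genes tested. The summed level of the list was 1113 to 1729 CPM in control and 554 to 664 CPM in ventral midbrain libraries, without overlap. COL1A1 and COL1A2 made up most of this sum, with COL1A2 at 289 and 140 CPM. COL1A1 fell from 910 ± 213 to 277 ± 38.4 CPM (SD, n = 3; adjusted p by edgeR = 0.00368), while PDGFRB was at 17.6 and 15.8 CPM and ACTA2 at 54.8 and 64.8 CPM. RGS5 and KCNJ8 were higher on average without passing, at 2.01 and 3.49 CPM and at 36.2 and 51.7 CPM. So were LUM and DCN, at 0.524 and 2.80 CPM and at 0.407 and 1.81 CPM. Neuron markers summed to 821 to 1670 CPM in control and 362 to 765 CPM in ventral midbrain libraries, of which STMN2 was the largest part, and 0 of 8 passed edgeR's test, 3 by an unadjusted p below 0.05, 3 with DESeq2 and 0 with voom. In the blocked fit 4 neuron markers were lower, STMN2, DCX, NEFL and NEFM (adjusted p by edgeR with the block = 0.00907, 0.00344, 0.0298 and 0.00403). The part of these markers in the CYP1B1 and TDO2 values was not tested.

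The label of astrocyte was checked with 12 markers, all of them tested, which summed to 4844 to 5731 CPM in control and 5582 to 6415 CPM in ventral midbrain libraries. GFAP was at 362 and 371 CPM and VIM at 3609 and 4485 CPM, while S100B and ALDH1L1 were low in both groups, at 7.44 and 7.41 CPM and at 1.07 and 1.497 CPM. AQP4, the astrocyte water channel, rose from 3.86 ± 2.25 to 30.5 ± 17.2 CPM (SD, n = 3; adjusted p by edgeR = 0.0477). The glutamate transporter gene SLC1A3 rose from 35.4 to 94.4 CPM and NFIA, a glial transcription factor, from 110 to 196 CPM (adjusted p by edgeR = 0.0345 and 0.0453). These 3 of 12 were the astrocyte markers that passed, 0 passed as lower, and 1.06% of all genes tested were higher. Without control replicate 2 or 4 the count of astrocyte markers called was 0, and without control replicate 3 or ventral midbrain replicate 2 or 3 it was 1. In the blocked fit 3 were higher and 3 lower. Their part in the CYP1B1 and TDO2 values was not tested. Microglia markers summed to at most 0.908 CPM, and AIF1 and P2RY12 had no read. Markers of liver and placenta, tissues rich in TDO2, summed to at most 4.46 CPM, and TTR, CGA and CGB5 had no read. Endothelial markers summed to 16.0 to 20.4 CPM in control and 8.65 to 13.8 CPM in ventral midbrain libraries, choroid plexus markers to at most 7.45 CPM and pluripotency markers to at most 8.70 CPM.

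**Figure D4:**
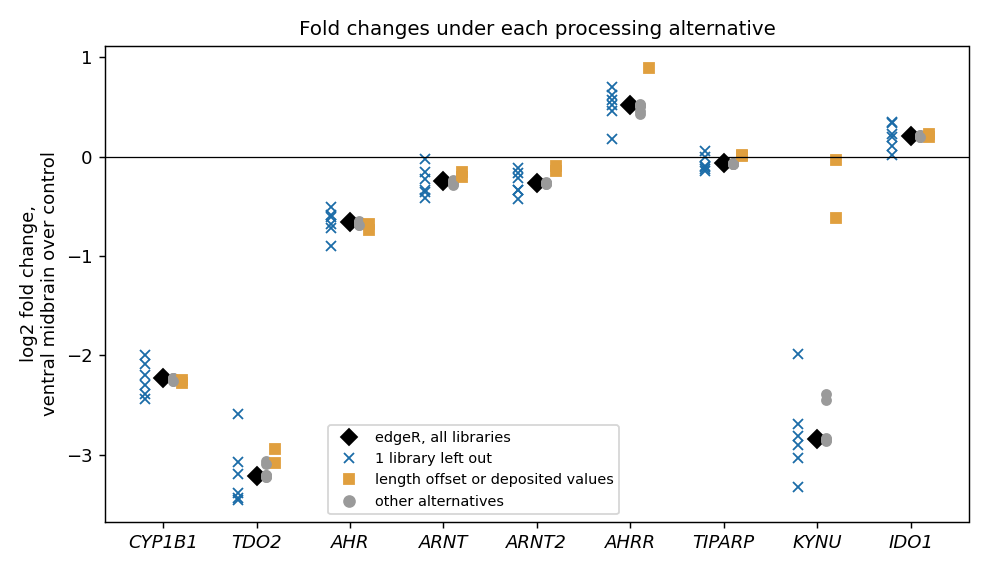
Log2 fold change of each member by edgeR on all 6 libraries (black diamonds), with 1 library left out (blue crosses), with the gene-length offset or the deposited values (orange squares) and under the other alternatives (grey circles). CYP1B1 stays between -2.44 and -2.00 and TDO2 between -3.46 and -2.59, whereas KYNU ranges from -3.33 to -0.03.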

How the data were processed

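Libraries were made with a 3' end kit for polyadenylated RNA, per the labels' protocols. The submitters' processing notes name GRCh38.p13 as build, Salmon without a version, and DESeq2 1.27.12. The deposited files hold Salmon's estimated counts, TPM and effective lengths for 226608 transcripts per library, and a deposited table of normalized gene signal covers 21509 genes. Estimated counts were summed per gene with GENCODE 29 (GRCh38), matching 205225 transcripts (90.6%), and rounded. Between 0.992% and 1.12% of a library's reads fell on unmatched transcripts.

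Genes were filtered with filterByExpr (15984 of 27455 kept), scaled by TMM and tested with edgeR 4.0.16 (quasi-likelihood, robust, Benjamini-Hochberg adjustment over all genes) in R 4.3.3. The script was tested on simulated data. CPM use TMM-scaled library sizes, and standard errors were taken as the size of the log2 fold change over the root of its F statistic. The members and lists were chosen with earlier results of these data known. Named genes are all members, list genes that passed, the 2 with the smallest p and the 2 with the highest level in each list, overlapping genes, the 5 nearest to CYP1B1 and to TDO2 and abundant markers. Genes passing only in the blocked fit, the P450 family and further marker, low-count and unread genes were named after their values were seen. A few list genes are not reported here by name or value, but remain in the counts. The groups share replicate numbers 2, 3 and 4. Deviations from group means correlated at 0.234, 0.345 and 0.204 between same-numbered samples and at most 0.0237 otherwise. Centring each group of 3 on its own mean ties these values together, so the low ones are no separate evidence of pairing. No label states a pairing, and these values do not establish one. The main edgeR fit and the permutation tests did not use the numbers, and the blocked fit, an alternative, did.

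The alternatives comprised 2 other scalings (RLE, upper quartile), no filter, 2 CPM in 3 libraries, DESeq2 1.42.0, voom (limma 3.58.1), a gene-length offset, the deposited values on log2(value + 1), a replicate block, a threshold of 0.01 and each library left out. Figures were drawn with matplotlib 3.10.9.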

Additional observations from a re-analysis of the deposited data

How the results depend on the processing

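The count of 344 genes over the whole table was 1012 with no low-count filter, 750 with DESeq2, 174 with the gene-length offset, 180 with the deposited normalized values, 102 at a threshold of 0.01, 1300 with the replicate block and 131 to 258 with 1 library left out (131, 159, 168 and 211 without control replicate 4, ventral midbrain replicate 2, ventral midbrain replicate 4 and control replicate 2). The 2 pathway list genes became 10 with no filter, 4 with DESeq2, 12 with the replicate block, 1 with the gene-length offset, 1 with the deposited values, 1 at the threshold of 0.01 and 1 to 2 with 1 library left out. The 4 mesenchymal or pericyte markers called became 8 with no filter and with DESeq2, 7 with the block and 3 to 5 with 1 library left out, and the 3 astrocyte markers became 5 with no filter, 6 with the block, 0 at the threshold of 0.01 and 0 to 2 with 1 library left out, checks chosen after seeing the data. TIPARP, not called, reversed to 0.013 with the gene-length offset, 0.0031 with the deposited values and 0.052 without ventral midbrain replicate 3, within a range of -0.15 to 0.052 over the fits with 1 library left out. The log2 fold change, a description, ranged from -2.44 to -2.00 for CYP1B1 and from -3.46 to -2.59 for TDO2. TDO2 was past the threshold in 12 of 15 alternatives, and not without ventral midbrain replicate 2, 3 or 4. AHR passed in 3 of 15 (no filter, DESeq2 and the replicate block), and KYNU in 3 of 14 (no filter, DESeq2 and without control replicate 3). The replicate block changed no other member's call. The cause of these shifts was not tested.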
